A study of Mus musculus with 4 samples.

Results

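The 10 genes described here encode the core of the MHC class I antigen presentation pathway, namely B2m, H2-K1, H2-D1, Tap1, Tap2, Tapbp, Psmb8, Psmb9, Psmb10 and Nlrc5. Their members on the array were all probe sets listed with 1 of these genes and no other, which gave 27 of 45037 probe sets. RNA of 4 immortalized melanocyte lines, established from the skin of C57BL/6J pups aged 3 days, was hybridized to Affymetrix mouse arrays with 1 array per line. The study asked how active β-catenin alters melanocytes, and compared lines without a transgene (WT) with lines carrying bcat*, a stable and transcriptionally active β-catenin mutant expressed in the melanocyte lineage. The sample labels give line 9v as WT and male, line 14d as WT and female, line 10d as bcat* and male, and line 13d as bcat* and female. The article gives 13d as WT and 14d as bcat*, and the mice as male, so that each line is named below and a statement on genotype is given under both readings. All lines were grown to 80% confluency in Ham's F12 with serum at 10%, antibiotics and 200 nM of the phorbol ester TPA, and fibroblasts had been selected against with G418 when the lines were made. Every line is a single line with a single array, so that a difference between 2 lines has no replicate check.

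Class I molecules carry short peptides from inside the cell to its surface, where CD8+ T cells read them. Proteasomes cut proteins into peptides, and the immunoproteasome subunits encoded by Psmb8, Psmb9 and Psmb10 replace constitutive catalytic subunits when cells are exposed to interferon. The transporter made of Tap1 and Tap2 pumps peptides into the endoplasmic reticulum, where tapasin, encoded by Tapbp, holds empty class I molecules beside it. A class I molecule is a heavy chain, such as those encoded by H2-K1 and H2-D1, paired with β2-microglobulin, the product of B2m. Nlrc5 is a transactivator of these genes. Melanocytes, like most nucleated cells, can present peptides on class I, and melanocytic antigens are classical targets of CD8+ T cells.

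The values are intensities on a linear scale, and an intensity of 32 was taken as the detection level. RNA integrity numbers were 9.7 to 9.9, median intensities were 7 to 8 per line, and 35.8% to 36.1% of all probe sets reached the detection level. The labelled sex matched the arrays, since Xist had intensities of 4 and 4 in 9v and 10d and 2124 and 1768 in 13d and 14d. Of 10 melanocyte markers, 9 were detected, none of them 2-fold apart between 10d and 9v or between 13d and 14d. Of the other pairs, only 14d and 10d had a marker 2-fold apart, namely Slc45a2, at 9963 in 14d and 21395 in 10d. The sum over the list ranged from 275273 to 290252. Ednrb, the undetected marker of that list, lay at 29 in every line. Leukocyte markers summed to 122 to 144 per line, with only Csf1r detected of 11 measured and Ptprc at 4 to 5. Fibroblast markers, with 2 of 10 detected, summed to 286, 180, 148 and 107 in 9v, 10d, 13d and 14d, and endothelial markers, with 1 of 7 detected, to 233, 136, 115 and 75. Both sums were highest in 9v, through Col1a2 with 175, 80, 24 and 17 and Vwf with 182, 76, 52 and 6, while Col1a1, Col3a1, Pecam1 and Cdh5 lay below the detection level in all lines. Keratinocyte markers summed to 158 to 320, with only Krt10 detected of 9 measured and Krt5 and Krt14 at 4 to 11. The part of such markers in the results below was not tested. Ctnnb1, the β-catenin gene, measured 30254, 31799, 34368 and 31844 in 9v, 10d, 13d and 14d by its brightest probe set, which does not separate the transgene from the endogenous gene.

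Of the 10 genes, 7 reached the detection level in at least 1 line, whereas Psmb8, Psmb9 and Nlrc5 lay below it in all lines. Of the 27 probe sets, 17 were detected in at least 1 line, 11 of them in all lines, and 10 were below the detection level throughout. With values raised to 32, line 9v alone was lowest in 9 of the 17 probe sets and alone highest in 0, while 10d alone was highest in 10, 14d in 5 and 13d in 2. Of the 17, 7 read H2-D1, so that they are not separate observations. By gene, 0, 3, 0 and 4 of the 7 were highest in 9v, 10d, 13d and 14d. Over the array 1863, 2741, 2024 and 2787 of 9415 detected genes were highest there, in that order. The share of the array lowest in 9v is not given here. As labelled, both bcat* lines lay above both WT lines in 6 of the 17 probe sets and below them in 1, against 18.5% and 18.3% of the 17423 probe sets detected in at least 1 line of the array. With the article's genotypes the counts were also 6 and 1, against 16.1% and 14.2%, in other probe sets, since none can separate the lines both ways. By the brightest probe set of each gene, the median range over the lines was 1.80 on the log2 scale for the 7 detected genes, and 0.84 for the 9415 detected genes of the whole array. In bulk RNA of this kind, fewer cells that express a gene and less RNA per cell cannot be told apart.

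**Figure D1:**
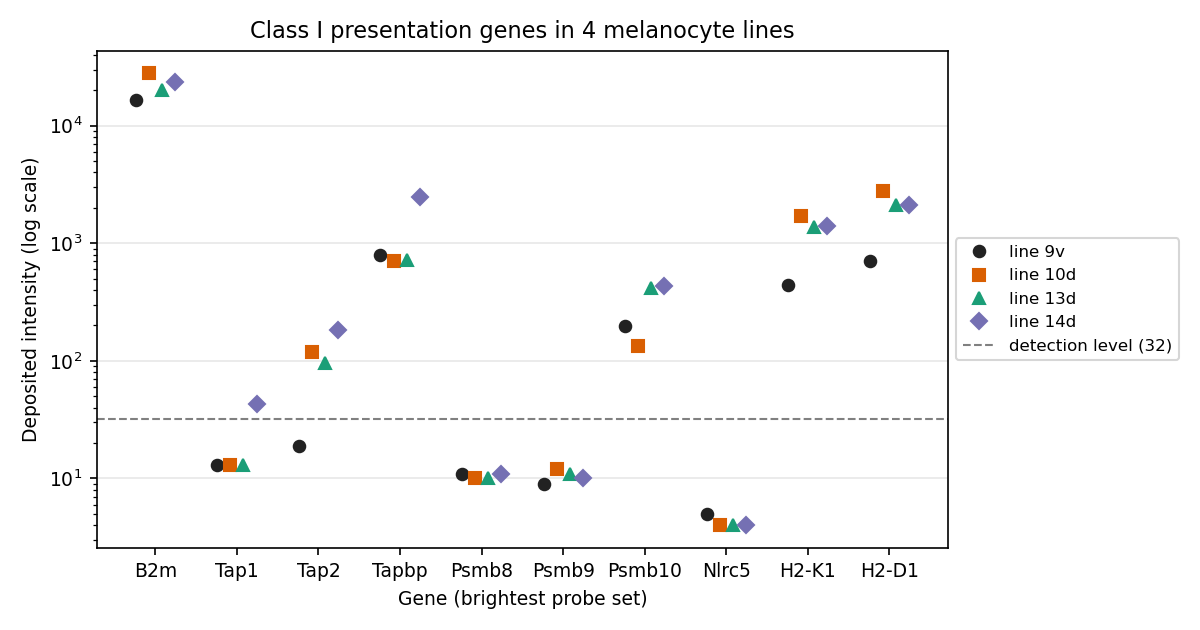
Deposited intensity (log axis) of the brightest probe set of each of the 10 genes, 1 point per line, with the detection level of 32 as a dashed line. Line 9v lies lowest for B2m, H2-K1, H2-D1 and Tap2, line 14d lies highest for Tapbp, and Psmb8, Psmb9 and Nlrc5 stay under the dashed line in every line; no error is drawn because each line is 1 array.

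The promoters of B2m and of both classical heavy chains are shown because these genes share known regulatory elements. By the brightest probe sets, the log2 range over the lines was 0.76 for B2m, under the array median of 0.84, and 1.95 and 1.97 for H2-K1 and H2-D1. Tap2, Tapbp and Psmb10, with ranges of at least 2.52, of 1.80 and of 1.69, are not shown. By RefSeq annotation, 7 of the 10 genes lie on chromosome 17, in the order Tapbp, H2-K1, Psmb9, Tap1, Psmb8, Tap2 and H2-D1, whereas B2m lies on chromosome 2 and Psmb10 and Nlrc5 on chromosome 8. Each window, from RefSeq on GRCm38.p6, runs from 250 bases before the transcription start to 50 after it. The B2m window is chr2:122147437-122147736 on the plus strand, the H2-K1 window chr17:34000298-34000597 on the minus strand and the H2-D1 window chr17:35262844-35263143 on the plus strand. H2-K1 has another annotated start close by, and its first window is shown. Capitals mark matches, on either strand, to AANNGAAA, the core bound by interferon regulatory factors, and to the κB site.
B2m: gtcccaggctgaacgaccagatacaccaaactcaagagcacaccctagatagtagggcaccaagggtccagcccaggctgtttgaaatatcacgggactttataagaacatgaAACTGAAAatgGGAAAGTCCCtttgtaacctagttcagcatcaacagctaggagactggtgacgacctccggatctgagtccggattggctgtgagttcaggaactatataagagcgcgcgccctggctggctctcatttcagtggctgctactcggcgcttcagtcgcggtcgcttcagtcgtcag
H2-K1: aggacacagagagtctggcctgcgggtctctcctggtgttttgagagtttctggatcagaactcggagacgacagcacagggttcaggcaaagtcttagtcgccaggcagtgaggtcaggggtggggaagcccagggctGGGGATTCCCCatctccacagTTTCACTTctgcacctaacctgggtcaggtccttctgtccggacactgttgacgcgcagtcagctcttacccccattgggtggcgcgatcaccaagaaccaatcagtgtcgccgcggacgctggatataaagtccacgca
H2-D1: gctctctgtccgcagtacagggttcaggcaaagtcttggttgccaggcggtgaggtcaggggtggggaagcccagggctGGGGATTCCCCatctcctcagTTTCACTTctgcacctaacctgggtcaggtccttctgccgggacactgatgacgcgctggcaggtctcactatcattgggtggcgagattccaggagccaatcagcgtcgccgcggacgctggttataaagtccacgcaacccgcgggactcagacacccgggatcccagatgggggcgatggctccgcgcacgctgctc
The B2m window held the interferon regulatory factor core from base 137 to 130 before the start and a κB site from base 126 to 117. The H2-K1 window held κB matches, in overlapping frames, from base 111 to 101 before the start and the core from base 90 to 83, and the H2-D1 window held the same order from base 171 to 161 and from base 150 to 143. The H2-K1 and H2-D1 windows were identical at 211 of 240 aligned columns, or 87.9%, where columns can include gaps. Each of them was identical with B2m at 53.9% of aligned columns, 131 of 243 for H2-K1 and 164 of 304 for H2-D1. No value for unrelated promoters is given here, so that the 53.9% is not read as likeness. Over all 32851 promoters of the table, 23.9% held AANNGAAA and 8.5% a κB site. The last motif searched, the gamma-activated site TTCNNNGAA, is held by 8.3% of all promoters and among the genes described here was matched in Psmb8 alone, from base 97 to 89. The windows of Psmb9, Psmb10, Tap1 and Tapbp held none of the 3 motifs, and Tap2 and Nlrc5 had no entry. A match describes letters in the window and does not show that a factor binds there.

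**Figure D2:**
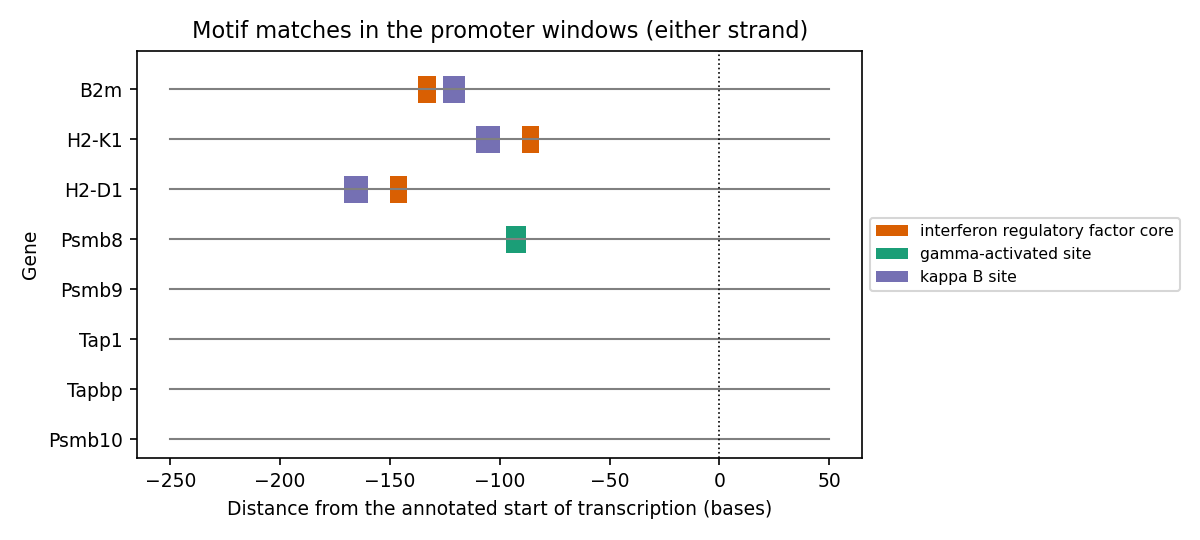
Position in bases from the transcription start (horizontal axis) of matches to the 3 motifs in the promoter windows of 8 genes, 1 row per gene. B2m, H2-K1 and H2-D1 hold both a κB site and an interferon regulatory factor core, Psmb8 holds a gamma-activated site, and the other rows are empty.

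B2m, the light chain of every class I molecule, had intensities of 16444 in 9v, 27858 in 10d, 20139 in 13d and 23630 in 14d by its brighter probe set. Its other probe set gave 14818, 24922, 18482 and 20948, in the same order of lines. Line 9v was thus lowest and 10d highest in both, with 10d over 9v at 1.69-fold and 1.68-fold. Neighbours in that order (9v, 13d, 14d, 10d) differed by 1.13- to 1.25-fold, and no pair of lines was 2-fold apart. As labelled, 14d (WT) lay between both bcat* lines, so that the genotypes overlapped. With the article's genotypes, both bcat* lines (10d and 14d) lay above both WT lines in both probe sets.

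H2-K1, the K heavy chain, was read by 4 probe sets, of which 3 were detected. The brightest, 1451931_x_at, had intensities of 438 in 9v, 1691 in 10d, 1362 in 13d and 1397 in 14d. Line 9v was low and the other lines lay close together, with folds over 9v of 3.86 for 10d, 3.11 for 13d and 3.19 for 14d. The labelled genotypes overlapped, and with those of the article both bcat* lines lay above both WT lines, 14d above 13d by 1.03-fold. The other detected probe sets did not follow this order. Probe set 1425336_x_at had 231, 214, 705 and 213 in 9v, 10d, 13d and 14d, so that 13d alone was high, at 3.05-fold over 9v and 3.31-fold over 14d. The labelled genotypes overlapped there, while both of the article's bcat* lines lay below both WT lines, 10d below 9v by 1.08-fold. Probe set 1427746_x_at had 105, 170, 306 and 82, so that 13d was again highest, and the labelled bcat* lines lay above both labelled WT lines, while the article's genotypes overlapped. The fourth, 1450534_x_at, lay at 12 in every line.

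H2-D1, the D heavy chain, was read by 9 probe sets, of which 7 were detected, and these fell into 2 patterns. In the first pattern line 9v alone was low. The brightest probe set, 1425545_x_at, had intensities of 712 in 9v, 2786 in 10d, 2131 in 13d and 2135 in 14d. Folds over 9v were 3.91 for 10d, 2.99 for 13d and 3.00 for 14d, while 13d and 14d differed by less than 1%. Probe set 1451784_x_at followed with 608, 2966, 2293 and 2112, and 1451683_x_at with 88, 530, 370 and 406. Probe set 1426324_at, the only detected H2-D1 probe set without the suffix _x_at, had 9 in 9v and 118, 92 and 88 in 10d, 13d and 14d. It was thus below the detection level in 9v alone, and 10d was at least 3.69-fold higher. In 1451784_x_at and 1426324_at both labelled bcat* lines lay above both labelled WT lines, but 13d exceeded 14d by only 1.09-fold and 1.05-fold, and the article's genotypes overlapped. In 1425545_x_at and 1451683_x_at 14d lay between 13d and 10d, so that the labelled genotypes overlapped and the article's did not, with 14d over 13d by less than 1% and by 1.10-fold.

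In the second pattern 10d and 13d were high and both other lines lay far below the detection level. Probe set 1425614_x_at had intensities of 8 in 9v, 1040 in 10d, 524 in 13d and 8 in 14d. Probe set 1452544_x_at had 7, 886, 495 and 7, and 1427651_x_at had 8, 577, 300 and 8. The lines high in all 3 probe sets are the ones labelled bcat*, and the groups as labelled did not overlap, while with the article's genotypes each group held 1 high and 1 low line. Line 10d was at least 32.5-, 27.7- and 18.0-fold higher than 9v in these probe sets, in the order given, and 13d at least 16.4-, 15.5- and 9.38-fold higher than 14d. The geometric mean of 10d and 13d was at least 23.1-, 20.7- and 13.0-fold that of 9v and 14d, with the latter raised to 32. Among all 17423 probe sets detected in at least 1 line, 163 (0.936%) were detected in 10d and 13d and in no other line, and these 3 were among them. All 3 read H2-D1. A similar number, 169 of the 17423, were detected only in 9v and 14d, and 0 of the 17 class I probe sets were among them. With so few class I probe sets and so small a share of the array, that 0 is not a result about them. The remaining H2-D1 probe sets lay at 7 to 8 and at 3 in all lines.

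The suffix _x_at marks probe sets with probes that can also hybridize to other transcripts, and 11 of the 13 probe sets of H2-K1 and H2-D1 carry it. Heavy chain genes are similar in sequence and polymorphic, so that levels of single heavy chain genes are uncertain here. The probe set listed for both genes together, 1424948_x_at, which belongs to neither count above, had intensities of 44, 59, 157 and 52 in 9v, 10d, 13d and 14d. It was highest in 13d, as were the dimmer H2-K1 probe sets.

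**Figure D3:**
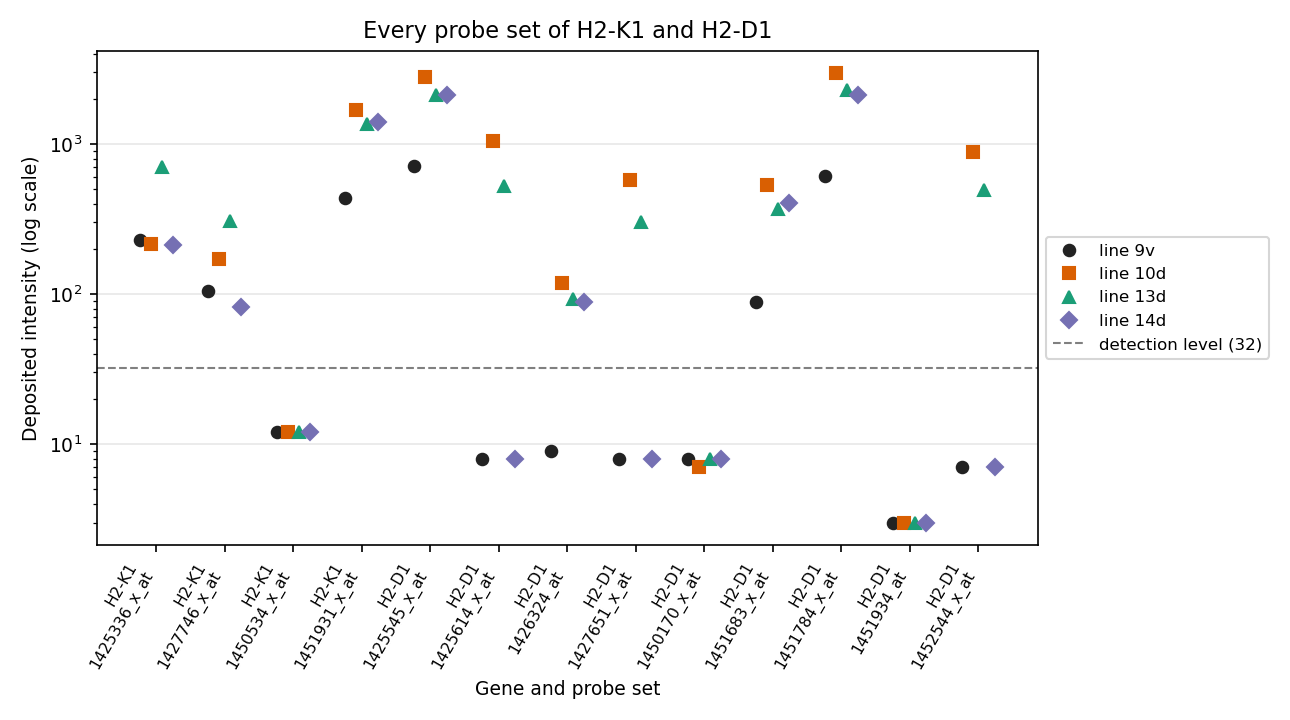
Deposited intensity (log axis) of all 13 probe sets of H2-K1 and H2-D1, 1 point per line, with the detection level of 32 as a dashed line. In 1425614_x_at, 1427651_x_at and 1452544_x_at, lines 10d and 13d lie between 300 and 1040 and lines 9v and 14d at 7 to 8, whereas in the brightest probe sets of both genes line 9v alone is low.

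Tap2, which encodes a subunit of the peptide transporter, had intensities of 19 in 9v, 120 in 10d, 95 in 13d and 184 in 14d by its single probe set. Line 9v lay below the detection level and 14d was highest. The folds over 9v were at least 3.75 for 10d, at least 2.97 for 13d and at least 5.75 for 14d. Tap1, the other subunit, was detected in 14d alone, with 43 there and 13 in each of the other lines by 1416016_at. Its other 3 probe sets lay at 4 to 6 in all lines, so that Tap1 was near or below the detection level throughout. Line 14d thus held the highest value of both transporter subunits.

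Tapbp, which encodes tapasin, had intensities of 790 in 9v, 705 in 10d, 714 in 13d and 2460 in 14d. Its second probe set, 1450378_at, had 38, 53, 54 and 240. Line 14d was high in both, at 3.11-fold and 6.32-fold over 9v and at 3.45-fold and 4.44-fold over 13d, while the other lines lay within 1.42-fold of each other. In the brighter probe set both labelled bcat* lines lay below both labelled WT lines, 13d below 9v by 1.11-fold, as in 18.3% of the array. The article's genotypes overlapped there, and in 1450378_at the genotypes overlapped under both readings. Tapbpl, a relative of tapasin, had 66, 54, 100 and 94 in 9v, 10d, 13d and 14d and was not 2-fold apart in any pair. Of 10 listed genes of peptide trimming and loading, 9 were measured and all 9 were detected. None of them was 2-fold apart between 9v and any other line. The widest ranges were those of Erap1, a peptide-trimming aminopeptidase, with 73, 128, 136 and 53, and of Uggt1, a glycoprotein folding sensor, with 1761, 2395, 2417 and 1001. Both were lowest in 14d, in which Tapbp was highest.

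Psmb10, the only detected immunoproteasome subunit, had intensities of 196 in 9v, 133 in 10d, 416 in 13d and 429 in 14d. Lines 13d and 14d, labelled female, were at 2.12-fold and 2.19-fold over 9v and at 3.13-fold and 3.23-fold over 10d. Each sex holds 2 lines, and no test between the sexes was made. The share of all probe sets that split the lines in this way is not given here, so that no link of Psmb10 to sex is drawn. Psmb8 had at most 11 in every line by either probe set, and Psmb9 had 9, 12, 11 and 10. Differences among such values were not detectable at this signal over background.

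The constitutive counterparts were all detected. Psmb6 had intensities of 4782 in 9v, 1948 in 10d, 4733 in 13d and 8935 in 14d, and Psmb7 had 7679, 3263, 6993 and 11002. Both were lowest in 10d and highest in 14d. Psmb5 had 4680, 5176, 4628 and 7115, and was also highest in 14d. Of 11 other subunits of the 20S core, all were detected and 8 were highest in 14d, as were 2787 of the 9415 detected genes of the array. Of the 11, 0 were 2-fold apart between 10d and 9v or between 13d and 14d. Of the other pairs, only 14d over 10d had a gene 2-fold apart, with 1 higher (Psma4) and 0 lower. In that pair 11.4% of all detected genes were higher and 12.4% lower. The widest ranges among the 11 were those of Psma4, with 3680, 2678, 4333 and 5432, and Psma2, with 8015, 7263, 9729 and 5723. Psme1, a subunit of the proteasome activator PA28, had 2494, 462, 975 and 3236, low in 10d and 13d. Psme4, another activator, had 2207, 1855, 3021 and 2095.

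Nlrc5 had intensities of 5, 4, 4 and 4 in 9v, 10d, 13d and 14d by its single probe set, and no level above background was measured in any line. Of 18 listed transcription factors of class I genes, 15 were measured and 14 detected, and 8 of these were highest in 14d, against the same 2787 of 9415 genes. The widest ranges were those of Irf9 and Stat2, partners in the complex that carries type I interferon signals to promoters. Irf9 had 251 in 9v, 1292 in 10d, 461 in 13d and 159 in 14d, and Stat2 had 15, 159, 56 and 8. Both were highest in 10d, then in 13d, and Stat2 lay below the detection level in 9v and 14d.

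Of 11 interferon receptor and signalling genes, 10 were detected. None was 2-fold higher in 10d than in 9v, while 2 were lower, against 7.85% and 10.0% of all detected genes. In 13d over 14d, 0 were higher and 1 lower, against 11.0% and 8.73%. In 14d over 10d, 1 was higher and 1 lower, against 11.4% and 12.4%. In 14d over 9v, 1 was higher and 0 lower, against 5.93% and 9.49%. Ifnar2, a chain of the type I receptor, had intensities of 1248, 1654, 1028 and 2801 in 9v, 10d, 13d and 14d, and Jak1, a kinase bound to these receptors, had 1410, 584, 1060 and 907. Of 20 listed interferon-induced genes, 18 were measured and 17 detected, of which 15 were highest in 10d. In comparison, 2741 of 9415 detected genes of the array were highest there. The widest ranges were those of Usp18, with 4, 769, 32 and 5, and Oas1a, with 10, 568, 37 and 10. Of the 7 detected class I genes, 3 (B2m, H2-K1 and H2-D1) were highest in 10d and 4 in 14d, and the difference between the lists was not tested. Of the class II presentation genes, 8 were measured and 0 were detected, with sums of 42 to 48 per line.

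**Figure D4:**
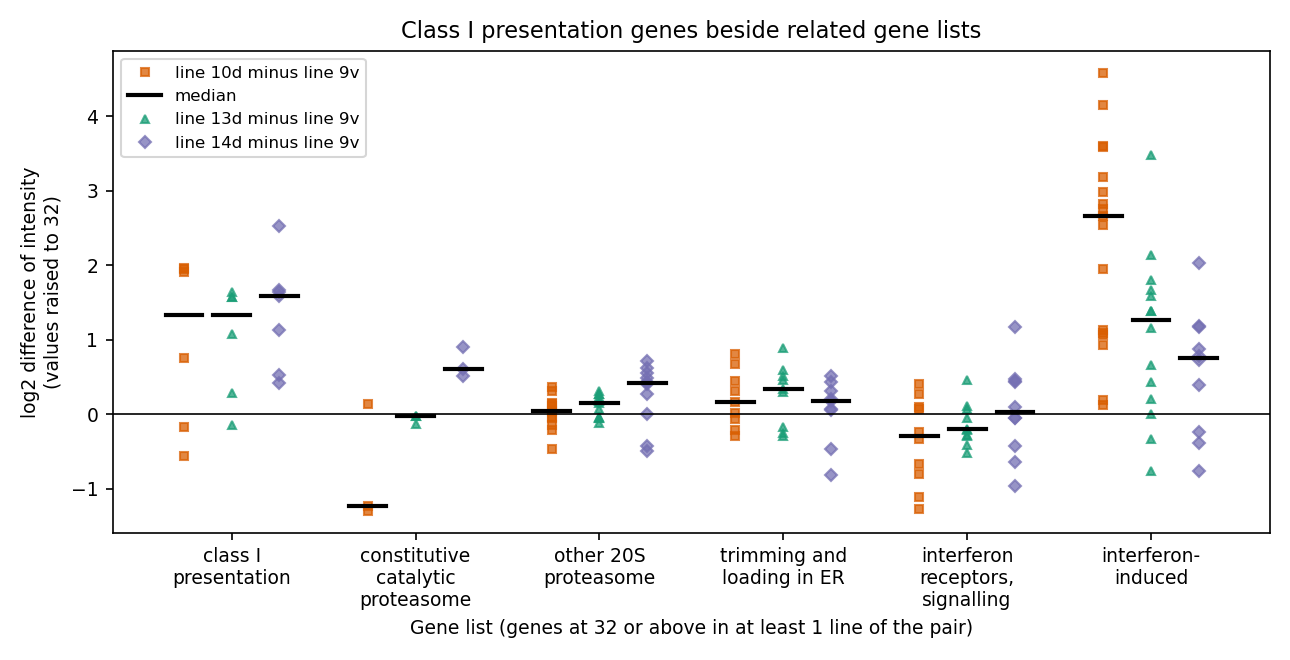
log2 difference of intensity from line 9v (vertical axis, values raised to 32) for the genes of 6 lists that were detected in at least 1 line of the pair, 1 point per gene, with medians as bars. The interferon-induced genes have medians of 2.67, 1.27 and 0.75 in 10d, 13d and 14d, over 17, 14 and 10 genes. The class I presentation genes have medians of 1.33, 1.33 and 1.58, over 6, 6 and 7 genes. Genes under 32 in both lines of a pair are left out, so that the medians are not over the same genes. All 3 differences share line 9v.

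The lines were next compared in pairs, with values raised to 32 and a gene counted when its brightest probe set was at least 2-fold apart. Between the male lines, 10d over 9v, 3 of 6 detected genes were higher (Tap2, H2-K1 and H2-D1) and 0 lower, against 7.85% higher and 10.0% lower of 9131 detected genes. Between the female lines, 13d over 14d, 0 of 7 were higher and 1 (Tapbp) was lower, against 11.0% and 8.73% of all detected genes. When every probe set of a gene was averaged instead, H2-D1 was higher in 13d than in 14d, at 189 against 49.3, and Tapbp lower. These pairs share no array and each is bcat* over WT as labelled. The median log2 difference of the detected class I genes was 1.33 in the male pair and -0.23 in the female pair, beside medians of all genes close to 0. Whether both pairs differ was not tested across the list.

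The other pairs reuse the same arrays and are not independent of these. In 13d over 9v, 4 of 6 genes were higher (Tap2, Psmb10, H2-K1 and H2-D1) and 0 lower, against 6.04% and 6.97% of all genes. In 14d over 9v, 5 of 7 were higher, namely these 4 and Tapbp, and 0 lower, against 5.93% and 9.49%. In 14d over 10d, 2 of 7 were higher (Tapbp and Psmb10) and 0 lower, against 11.4% and 12.4%, and in 13d over 10d only Psmb10 was higher of 6, and 0 lower, against 8.55% and 6.28%. Under the article's genotypes, 10d and 14d are the bcat* lines. By their brightest probe sets, H2-K1 and H2-D1 were over 2-fold higher in both of these than in 9v, and in neither were they 2-fold apart from 13d. Other probe sets of both genes did not all follow this. H2-K1 1425336_x_at was 0.93-fold in 10d and 0.92-fold in 14d over 9v, and 13d exceeded them by 3.29-fold and 3.31-fold. H2-D1 1425614_x_at was at least 16.4-fold higher in 13d than in 14d.

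**Figure D5:**
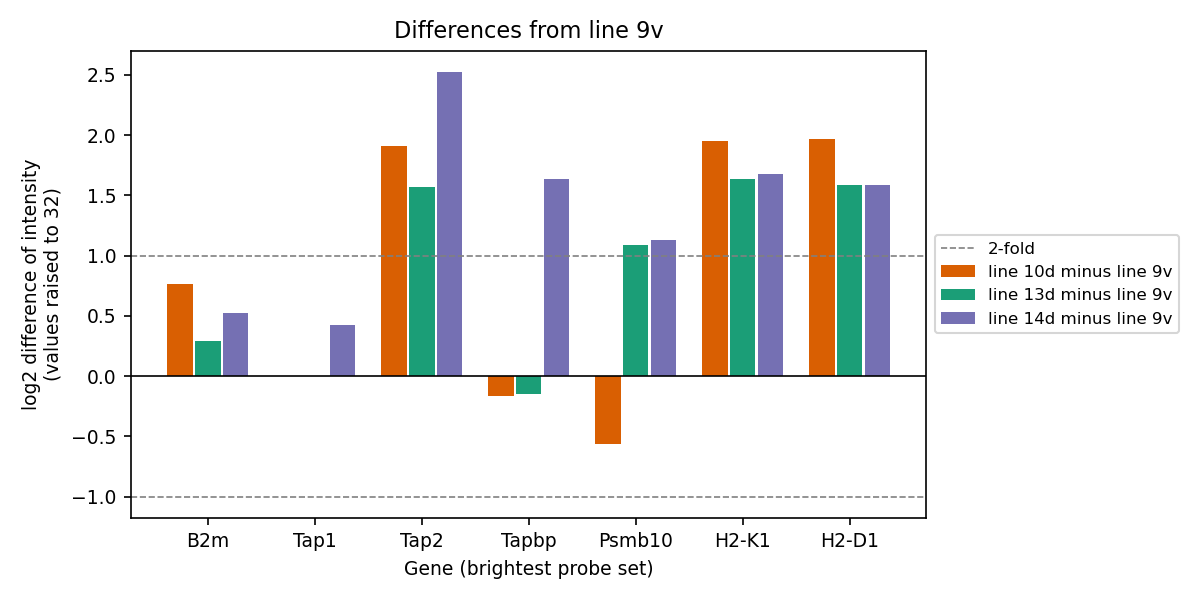
log2 difference of intensity from line 9v (vertical axis, values raised to 32) for the brightest probe set of each of the 7 detected genes, with 1 bar per line and dashed lines at 2-fold. H2-K1, H2-D1 and Tap2 lie over 2-fold in all 3 lines, Tapbp in 14d only, and Psmb10 in 13d and 14d; each bar rests on 2 arrays and the bars share line 9v.

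The genotypes as labelled were then compared over all 4 arrays with limma, with 2 lines per genotype. The p-values rest on the spread between these lines, moderated by limma over all probe sets. Each labelled genotype holds 1 male and 1 female line, so that this spread includes any difference between the sexes. Of 17423 probe sets, 0 (0%) were called at a Benjamini-Hochberg adjusted p under 0.05, and 1287 (7.39%) had an unadjusted p under 0.05. Of the 17 probe sets of class I genes, 0 were called and 4 had an unadjusted p under 0.05. These were the H2-D1 probe sets that were high in 10d and 13d, and H2-K1 1427746_x_at. The log2 difference, bcat* minus WT, was 6.56 for 1452544_x_at (SE 0.38, limma adjusted p = 0.105), 6.53 for 1425614_x_at (SE 0.43, limma adjusted p = 0.116) and 5.70 for 1427651_x_at (SE 0.41, limma adjusted p = 0.141). These differences use dim values under the detection level, and the bounds given above do not. For 1427746_x_at it was 1.30 (SE 0.41, limma adjusted p = 0.649).

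With the article's genotypes, 0 of 17423 probe sets (0%) were called, 648 (3.72%) had an unadjusted p under 0.05, and 0 of these measured a class I gene. The log2 differences of the H2-D1 probe sets were then 0.42 for 1452544_x_at, 0.49 for 1425614_x_at and 0.47 for 1427651_x_at. The lowest limma adjusted p among the 17 probe sets was 0.969 in that reading. No difference of a class I gene between genotypes therefore passed the test under either reading, and an adjusted p over the threshold does not show that the genotypes are alike.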

How the data were processed

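Each melanocyte line gave total RNA for a single Affymetrix array, 4 in all. Probe set intensity values were deposited by the authors, and GCRMA is named in the submitters' processing notes (version not given in the sources used here). GCRMA corrects background by probe sequence and normalizes between arrays. The scale was read as linear from the values, which are whole numbers. Rounding and background correction make differences under an intensity of 32 unreliable, and precision is limited by having 4 arrays. Gene names came from the platform annotation, where 34945 probe sets had 1 gene, 932 several and 9160 none, and 34741 of the first matched RefSeq genes of GRCm38.p6. 3 probe sets listed with a class I gene and another gene were left out.

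Groups followed the sample labels. Probe sets with an array at 32 or more were fitted with limma (lmFit, eBayes) on log2 intensities. Where a gene had several probe sets, that of the highest mean over the lines stood for it, and folds used values raised to 32. The code was tested on simulated data. Genes were named by rule: all members, up to 2 genes of the widest range per other list, and the 8 genes of nearest profile. Some of these, in lists not described, are not printed, and a few genes were added after their values were seen. Members, lists and motifs were chosen with earlier results of these data, or the sequences, known. R 4.3.3, limma 3.58.1, Python 3.11.15, NumPy 2.4.6, pandas 2.3.3, Biopython 1.88 and Matplotlib 3.10.9 were used.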

Additional observations from a re-analysis of the deposited data

Results flagged for a closer look

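Tap2 went opposite ways in the pairs of lines of each sex, with genotypes as labelled. Its intensities were 19 in 9v and 120 in 10d, both male, and 184 in 14d and 95 in 13d, both female. Line 10d (bcat*) was at least 3.75-fold higher than 9v (WT), while 13d (bcat*) was 1.94-fold lower than 14d (WT). The log2 difference of the male pair less that of the female pair was 2.86, with values raised to 32. This difference was not tested, since each pair holds 1 array per genotype. With the article's genotypes, both bcat* lines lay above both WT lines.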

How the results depend on the processing

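Of 210 probe set values under alternatives, 200 kept their direction, and of 54 pair counts and 26 counts of calls, 46 and 23 stayed within 1.5 times. The 200 include alternatives that cannot change the log2 difference. These were sex as a block, the intensity trend in the variance, both filter changes and 1 probe set per gene. Of the 10 values that turned, 5 did so with the article's genotypes. No filter on dim probe sets gave 791 calls of 45037 probe sets, and 1 of the 27 class I probe sets was among them. This was Psmb8 1444619_x_at, at 11 in both labelled WT lines and 10 in both labelled bcat* lines. Its rounded values held no spread within a genotype and lay under the detection level. A mean log2 value of at least 5 gave 7 calls of 16206, none of them among the 16 class I probe sets tested. With the article's genotypes the log2 difference turned to -0.92 and -0.60 for H2-K1 1425336_x_at and 1427746_x_at, to 0.86 for Tap1 and to 0.81 and 1.32 for Tapbp 1421812_at and 1450378_at. Leaving out 1 line at a time gave -0.05 (without 13d) to 1.67 for H2-K1 1425336_x_at, -1.12 to 0.52 for Psmb10 (positive without 10d, and 0.26 without 14d), -0.79 (without 9v) to 2.49 for Tap2, and -2.17 to 0.49 (without 14d) for Tapbp 1450378_at.

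Genes 2-fold apart in 13d over 14d numbered 2 with the mean of all probe sets (1 higher, 1 lower), and 2 (both lower) with a detection level of 16, 1.5-fold, quantile normalization or unraised values. In 13d over 9v 1 gene passed 3-fold. In 14d over 9v 3 genes passed at 3-fold, namely Tap2, Tapbp and H2-K1. With the mean of all probe sets 3 also passed there, namely Tap2, Tapbp and Psmb10. H2-K1 then had 106 in 9v, 165 in 10d and 131 in 14d, so that 10d and 14d were under 2-fold over 9v. H2-D1 had 24.9 in 9v and 49.3 in 14d, under 2-fold with 9v raised to the detection level, but 262 in 10d. In 13d, with 244 for H2-K1 and 189 for H2-D1, both stayed over 2-fold. The count in 10d over 9v fell from 3 to 2. The causes were not tested. Signal over background limits Tap1, Psmb8, Psmb9 and Nlrc5. The labels share no replicate number between genotypes. Sex as a block, which pairs 10d with 9v and 13d with 14d, gave 0 calls and a lowest class I adjusted p of 0.359 (limma).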

Other observations

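Class I-like heavy chains outside the classical pathway did not share a single order of lines. Mr1, which presents microbial metabolites, had intensities of 718 in 9v, 490 in 10d, 177 in 13d and 19 in 14d, and was thus lowest where Tapbp was highest. Hfe, which acts in iron sensing, had 1527, 1132, 461 and 2123, with 13d lowest and 14d highest. Fcgrt had 502, 235, 262 and 977, in the same order of lines as the brighter Tapbp probe set. H2-M3 had 7, 32, 50 and 13, with 13d highest. Of 24 genes of this list 11 were measured and 4 detected.

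The genes whose centred log2 values over the 4 lines lay nearest to the mean profile of the 7 detected class I genes were Shoc2, 5530601H04Rik, 5730409E04Rik, Mettl7a1, Inppl1, Vwa5a, Slco3a1 and Nudt9, by Euclidean distances of 0.0954 to 0.188. Shoc2 had intensities of 476 in 9v, 911 in 10d, 877 in 13d and 1316 in 14d. With 4 lines this is a description of likeness only.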
